A study of Homo sapiens with 24 samples.

Results

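Translation of an mRNA needs a set of protein factors that bring it to the ribosome, find its start codon, extend the chain and release it. The 41 genes described here encode such factors and their regulators. They were set by a list of Ensembl gene identifiers, with earlier results of these data known, out of the 20426 genes listed in every table of the series. They comprise 5 genes of the cap-binding complex (EIF4E, EIF4G1, EIF4G3, EIF4A1, EIF4A2), 2 helicase cofactors (EIF4B, EIF4H), the poly(A)-binding protein PABPC1, and the 13 subunits of the scaffold eIF3 (EIF3A to EIF3M). A further 8 act in initiator tRNA delivery, start codon choice and subunit joining (EIF2S1, EIF2S2, EIF2S3, EIF1, EIF1AX, EIF5, EIF5B, EIF6), 6 in elongation (EIF5A, EEF1A1, EEF1B2, EEF1D, EEF1G, EEF2), 2 in termination (ETF1, GSPT1), and 4 are regulators (EIF4EBP1, EIF4G2, EEF2K, PDCD4). All 41 identifiers were present in all 24 tables, and 39 passed the filter on low counts.

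The libraries came from 6 populations of cultured human cells, each with 2 libraries of INPUT RNA and 2 of ribosome-protected fragments (footprints, RPF), which are the stretches of mRNA that ribosomes shield from nuclease. The population 841CON is labelled as normal colon epithelium and wild type, and HCT116, HCT15 and SW620 are established colon cancer lines. The other two are HCT15 carrying an expression vector, labelled PLVX and called the vector line here, and HCT15 made to overexpress COPS7B, a subunit of the COP9 signalosome. All cells received cycloheximide at 100 µg/mL for 10 minutes before lysis, an inhibitor that stalls ribosomes on the mRNA. By the growth protocols 841CON was grown in EMEM, HCT116 in RPMI-1640, HCT15 in DMEM and SW620 in L15 in an air incubator, so line and medium cannot be told apart. The labelled cell types were not checked against marker genes here, because the tables name genes by identifier only, and the level of COPS7B itself was not checked for the same reason. The design compares translational efficiency (TE), which sets a gene's footprints against its INPUT RNA, in each cancer line with 841CON, and the COPS7B line with the vector line.

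As background, initiation on most mRNAs begins when EIF4E binds the cap, EIF4G joins it to the helicase EIF4A and to PABPC1 on the poly(A) tail, and eIF3 links this assembly to the small ribosomal subunit. The subunit carries initiator tRNA brought by eIF2, and EIF1, EIF1AX and EIF5 act as the start codon is found, before EIF5B joins the large subunit. Many mRNAs of elongation factors, of several initiation factors and of PABPC1 begin with a terminal oligopyrimidine (TOP) tract, a C at the cap followed by a run of C and T bases, through which their translation answers to the kinase mTOR.

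The start sequences show which members carry such a tract in the RefSeq annotation (assembly GRCh38.p14), and they are given for members described in detail further on. Each is 30 bases long, 10 before the listed transcription start and 20 from it on, with the pyrimidine run that opens the transcript in capitals. The motif searched was a C at the start followed by at least 4 bases that are each C or T, on the gene's own strand.
EEF1A1: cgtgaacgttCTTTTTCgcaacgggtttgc
EEF2: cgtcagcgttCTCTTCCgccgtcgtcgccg
EIF4A2: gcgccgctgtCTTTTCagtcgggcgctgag
EIF4B: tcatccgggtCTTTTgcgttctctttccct
EIF3D: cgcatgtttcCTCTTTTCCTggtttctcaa
EIF3K: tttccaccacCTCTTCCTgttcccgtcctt
EIF2S3: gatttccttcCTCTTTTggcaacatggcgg
EEF1B2: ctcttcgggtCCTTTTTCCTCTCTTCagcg
EIF4G3: ttttccgagcagccgtcctgccggactgct
EIF5B: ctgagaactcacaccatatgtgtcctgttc
EIF2S1: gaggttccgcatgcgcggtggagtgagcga
EIF1AX: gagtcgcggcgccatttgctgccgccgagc
The windows lie, for EEF1A1 at chr6:73521013-73521042 on the minus strand, EEF2 at chr19:3985444-3985473 on the minus strand, EIF4A2 at chr3:186783567-186783596 on the plus strand, EIF4B at chr12:53006446-53006475 on the plus strand, and for EIF3D at chr22:36529147-36529176 on the minus strand, EIF3K at chr19:38619178-38619207 on the plus strand, EIF2S3 at chrX:24054946-24054975 on the plus strand and EEF1B2 at chr2:206159885-206159914 on the plus strand. The remaining windows, which have no capitals, are EIF4G3 at chr1:21176878-21176907 on the minus strand, EIF5B at chr2:99337379-99337408 on the plus strand, EIF2S1 at chr14:67360318-67360347 on the plus strand and EIF1AX at chrX:20141819-20141848 on the minus strand. EEF1B2 has a second listed start and EIF4G3 another, neither with a run. Of the 41 members 32 had a listed start, and a run of this kind opened at least 1 start in 10 of them (31.25%), against 1404 of 27305 genes of the whole RefSeq promoter table (5.14%). The 10 were EIF4A2, EIF4B, EIF3D, EIF3F, EIF3K, EIF3M, EIF2S3, EEF1A1, EEF1B2 and EEF2, and the longest run, 16 bases, was that of EEF1B2. A match is a description of these letters and not evidence that the mRNA is controlled through them.

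Library depth over the shared genes ran from 960395 to 6596429 counts in INPUT and from 84262 to 4679279 in RPF, where the 2 SW620 libraries were the shallowest. One count there stood for 8.61 and 10.6 CPM (counts per 1000000 of the library, scaled by trimmed means), so a gene without a footprint in SW620 could still have had up to 14.2 CPM, the level of 3 counts over both libraries. Replicates differed in how close they were. The 841CON INPUT pair correlated at 0.689 over log CPM of genes and the SW620 RPF pair at 0.495, while both HCT116 pairs and the RPF pairs of 841CON and the COPS7B line differed little beyond sampling noise (chi-square per degree of freedom 1.39 to 1.70). That chi-square was 63.9 for 841CON INPUT, 31.0 for HCT15 INPUT and 31.6 for HCT15 RPF. Whether replicates are separate cultures is not in the labels, so p-values rest on the spread between libraries of a group, pooled over the 12 pairs, which may be technical. Together the members held 1.12% to 2.51% of INPUT counts and 1.14% to 2.58% of footprints, and the translocase gene EEF2 alone held 0.180% to 0.744% and 0.260% to 1.06%.

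Against 841CON, TE in HCT116 was higher for EIF4A2, EIF4H and PABPC1 and lower for 11 members, among them EIF5B, EIF4G3 and ETF1. In SW620 it was higher for PABPC1 and lower for 8 members, among them EIF2S1, PDCD4, EIF6 and EEF1A1, and in HCT15 it was higher for EEF1D and lower for EIF4G3. The HCT116 calls were 3 higher and 11 lower of 38 members tested (36.8%, against 45.6% of all genes tested, of which 15.1% were higher and 30.6% lower). The median log2 TE change was -0.24 among members and -0.59 among all genes. This order turned with a minimum mean of 50 counts in both assays and both lines, to -0.16 and 0.08. Of the 27 members and 2800 genes then tested, 6 and 549 were called. At the main filter, leaving out 841CON INPUT replicate 2 turned the order too, to -0.75 among members and -0.57 among all genes. Without replicate 1 the medians were -0.42 and -0.81. Without 841CON footprint replicate 1, or any one HCT116 library, fewer members and fewer of all genes were called. The same held when the close replicate pairs were summed into 1 library each. In HCT15, a fit of only the compared libraries called 0 of 38 members and 0 of 8517 genes for TE. The 2 HCT15 calls of the fit to all libraries were 5.26% of 38, against 16.7% of all genes (11.6% higher and 5.08% lower). Fewer members and fewer of all genes were called without HCT15 INPUT replicate 1 or either 841CON footprint library. More of both were called without 841CON INPUT replicate 1. Without HCT15 footprint replicate 2 more members but fewer of all genes were called. The SW620 calls were 23.7% of 38, against 18.1% of all genes (8.38% higher and 9.70% lower), the median being -1.22 among members and -0.28 among all genes. In that line fewer members and fewer of all genes were called without 841CON footprint replicate 1 or SW620 INPUT replicate 2. A fit of only the compared libraries called 0 of 35 members and 288 of 7284 genes. Here and below a call is a p under 0.05 after Benjamini-Hochberg adjustment over all genes (edgeR, quasi-likelihood), ± is a standard error, and each group has 2 libraries. TE was tested for genes with a mean of at least 10 INPUT counts in both lines. Alternative settings are described further on, and not every loss of a call under them is listed by member. A whole culture was measured in each library, so fewer cells with a transcript and less of it per cell cannot be told apart. The 3 comparisons share the 4 libraries of 841CON and are not independent of each other.

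INPUT RNA in HCT116 was higher for 10 and lower for 3 of the 39 members (33.3% called, against 40.1% of all genes, with 19.0% higher and 21.0% lower). In HCT15 it was higher for 6 and lower for 0 (15.4%, against 35.4%, with 16.7% higher and 18.7% lower), and in SW620 higher for 16 and lower for 4 (51.3%, against 44.4%, with 21.9% higher and 22.5% lower). The median log2 RNA change was 0.54, 0.56 and 0.87 in the 3 lines, while over all genes it was -0.04, -0.02 and 0.03. The member medians moved to 0.32, 0.43 and 0.58 without 841CON INPUT replicate 1 and to 1.00, 1.12 and 1.56 without replicate 2. In footprints, 15 members of 39 were higher and 7 lower in HCT116 (56.4%, against 59.3% of all genes, with 22.6% higher and 36.7% lower). In HCT15 the counts were 9 higher and 2 lower (28.2%, against 49.9%, with 28.9% higher and 21.1% lower), and in SW620 they were 7 higher and 8 lower (38.5%, against 37.8%, with 18.9% in each direction). Without scaling by trimmed means, 29 of 39 members were called in HCT116 footprints, 22 of them higher, beside 7208 of 11938 genes. Without 841CON INPUT replicate 1 or 2, RNA in HCT15 was called for more members and more of all genes. Without either 841CON footprint library, footprints were called for fewer members and fewer of all genes in HCT15 and SW620. The same held in SW620 without its footprint replicate 1. Median footprint changes were 0.52, 0.53 and -0.51 among members and -0.25, 0.27 and -0.09 among all genes. With library totals alone in place of trimmed means the footprint median of members in SW620 turned to 0.07 and the TE median in HCT116 to 0.03, so the direction of these medians depends on the scaling. Scaling by totals alone moved the median of all genes by over 0.1 as well, for example from -0.59 to -0.37 for TE in HCT116.

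**Figure D1:**
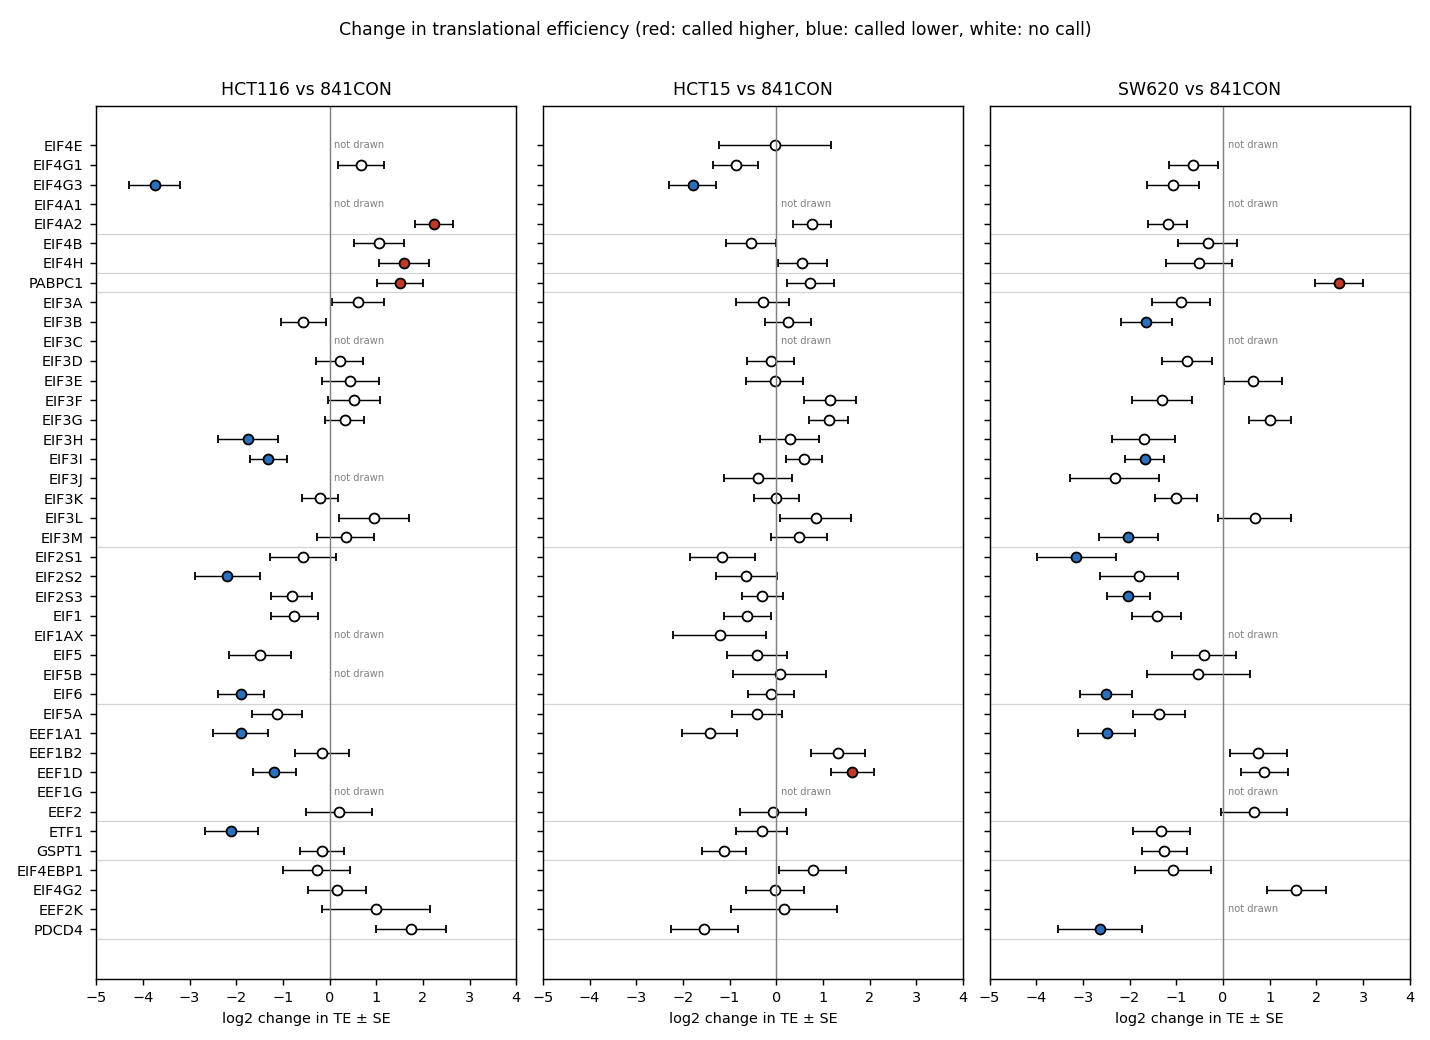
Log2 change in TE of each member in HCT116, HCT15 and SW620 against 841CON, with its standard error and 2 libraries of each kind per line. Members are grouped from top to bottom by role, from the cap-binding complex to the regulators. Filled points are called at an adjusted p under 0.05, and members that were not tested or had 3 footprint counts or fewer in the cancer line are marked as not drawn. EIF4G3 (-3.75) lies farthest to the left in HCT116 and PABPC1 (2.48) farthest to the right in SW620.

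In the cap-binding complex, EIF4G3, one of the scaffold proteins that hold cap and helicase together (ENSG00000075151), had fewer footprints in each cancer line. Its footprints stood at 453 and 365 CPM in 841CON, 11.9 and 17.5 in HCT116, 85.3 and 92.9 in HCT15 and 103 and 106 in SW620. The libraries of each cancer line lay below both 841CON libraries, with HCT116 lowest. Relative to 841CON its footprints were 27.8-fold lower in HCT116 (log2 change -4.80 ± 0.44, adjusted p = 8.65e-08), 4.59-fold lower in HCT15 (-2.20 ± 0.37, adjusted p = 8.96e-05) and 3.92-fold lower in SW620 (-1.97 ± 0.42, adjusted p = 0.00133). These 3 calls held under every alternative in which the gene was tested. Its RNA differed less, at 149.9 and 141 CPM in 841CON, 78.7 and 61.8 in HCT116, 153 and 64.7 in HCT15 and 75.6 and 79.2 in SW620, and one HCT15 library reached the level of 841CON. The RNA was called lower in HCT116 (-1.05 ± 0.36, adjusted p = 0.0268), which was lost without either HCT116 INPUT library (-1.14 to -0.79, adjusted p 0.0811 to 0.231), and lower in SW620 (-0.91 ± 0.36, adjusted p = 0.0496), lost without either 841CON INPUT library or either SW620 INPUT library (-0.95 to -0.91, adjusted p 0.0675 to 0.142). TE of EIF4G3 was 13.4-fold lower in HCT116 (-3.75 ± 0.55, adjusted p = 3.72e-05), a call that held under every alternative in which it was tested. In HCT15 it was 3.45-fold lower (-1.79 ± 0.50, adjusted p = 0.0206), and this call was lost without 841CON footprint replicate 1 or HCT15 INPUT replicate 1 (-1.62 to -1.25, adjusted p 0.0855 to 0.0937). In SW620 the TE change of -1.06 ± 0.56 was not called.

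EIF4G1, the other scaffold of this complex, was called in SW620, where both its RNA and its footprints were lower. Its footprints were 602 and 571 CPM in 841CON, 809 and 775 in HCT116, 238 and 494 in HCT15 and 129 and 127 in SW620. The SW620 libraries had the lowest of these values, 4.58-fold lower than 841CON (-2.20 ± 0.41, adjusted p = 0.000347), with RNA 2.95-fold lower (-1.56 ± 0.35, adjusted p = 0.00145). Both of these calls held under every alternative in which they were tested. EIF4E, the cap-binding protein itself, had few counts throughout. Its footprints were 11.8 and 6.89 CPM in 841CON, 0 and 0.971 in HCT116, 19.6 and 24.7 in HCT15 and 0 and 0 in SW620. In HCT116 a single count over both libraries, set against 41 in 841CON, gave footprints 20.8-fold lower, with a 95% Poisson interval of 3.74 to 823. The fitted change there was called (adjusted p = 0.0093) and was lost without 841CON footprint replicate 1 or HCT116 footprint replicate 1 (-3.67 to -3.22, adjusted p 0.0512 to 0.0893). The 0 counts in SW620 are not informative, since the limit there lies above the level in 841CON. RNA of EIF4E was 1.89 and 31.5 CPM in 841CON, 10.0 and 10.4 in HCT116, 56.7 and 27.9 in HCT15 and 44.9 and 75.3 in SW620, with a 841CON pair too far apart to place the cancer lines, and neither its RNA nor its TE was called in any of the 3 lines.

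EIF4A2 and EIF4A1 encode closely related helicases that unwind the mRNA leader. EIF4A2 (ENSG00000156976) had less RNA and more footprints in HCT116, and more of both in SW620. Its RNA was 222 and 207 CPM in 841CON, 89.4 and 94.5 in HCT116, 245 and 233 in HCT15 and 1205 and 877 in SW620. Both HCT116 libraries lay below, and both SW620 libraries far above, those of 841CON and HCT15. The RNA was 2.33-fold lower in HCT116 (-1.22 ± 0.29, adjusted p = 0.00272) and 4.86-fold higher in SW620 (2.28 ± 0.30, adjusted p = 9.52e-06), while the HCT15 change of 0.16 ± 0.29 was not called. Footprints of EIF4A2 were 125 and 119 CPM in 841CON, 237 and 256 in HCT116, 266 and 199 in HCT15 and 267 and 253 in SW620. Every cancer library exceeded both 841CON libraries, and the changes were 1.02 ± 0.29, adjusted p = 0.00544 in HCT116, 0.93 ± 0.29, adjusted p = 0.0123 in HCT15 and 1.09 ± 0.32, adjusted p = 0.011 in SW620. The RNA call in HCT116 and the footprint calls in all 3 lines were lost with the close pairs summed. The HCT15 call was lost without either 841CON footprint library or HCT15 footprint replicate 1 (0.71 to 0.97, adjusted p 0.0625 to 0.0884) and the SW620 call without either 841CON footprint library or SW620 footprint replicate 1 (1.04 to 1.12, adjusted p 0.0521 to 0.0636). TE of EIF4A2 was 4.71-fold higher in HCT116 (2.23 ± 0.41, adjusted p = 0.000302), which held under every alternative. In SW620 the TE change was -1.19 ± 0.43 and was not called (adjusted p = 0.058). TE of this gene differed among the 3 cancer lines in an F test of edgeR (adjusted p = 3.63e-05), from which the 841CON level cancels.

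For EIF4A1 the INPUT tables held almost no counts, while its footprints were abundant. INPUT RNA of EIF4A1 was 4.71 and 0 CPM in 841CON, 0.667 and 0 in HCT116, 15.1 and 6.05 in HCT15 and 182 and 59.7 in SW620, and its footprints were 565 and 537 CPM in 841CON, 447 and 477 in HCT116, 663 and 1127 in HCT15 and 267 and 338 in SW620. No TE was computed for it. Its RNA was called higher in HCT15 (3.44 ± 1.03, adjusted p = 0.0129), a call lost without 841CON INPUT replicate 2 or HCT15 INPUT replicate 1 (1.22 to 2.81, adjusted p 0.0971 to 0.33), and higher in SW620 (6.88 ± 0.98, adjusted p = 2.42e-05). With 5 counts in 841CON, all in replicate 1, the SW620 change was 4.64 without 841CON INPUT replicate 2 and 5.83 and 7.49 without SW620 INPUT replicates 1 and 2. Without 841CON INPUT replicate 1 no count is left in 841CON and the fitted size has no meaning. EEF1G, a subunit of the elongation factor that recharges EEF1A1, was at 0 in all 12 INPUT libraries, with footprints of 351 and 335 CPM in 841CON, 1022 and 1071 in HCT116, 243 and 329.8 in HCT15 and 577 and 824 in SW620. EIF3C had few counts in either readout, with at most 12.4 CPM in INPUT and 0 footprints in all RPF libraries but COPS7B replicate 2, and it has a near-identical copy, EIF3CL. In all, 60623 genes are listed for INPUT and 20426 for RPF, and in the vector and COPS7B tables reads listed apart as ambiguous between genes were 4.97% to 6.42% of INPUT and 0.324% to 0.748% of RPF. Whether these differences in counting bear on EIF4A1, EEF1G and EIF3C was not tested.

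The helicase cofactors EIF4B and EIF4H, which stimulate EIF4A, both had more footprints in HCT116. Footprints of EIF4H were 171 and 155 CPM in 841CON, 450.0 and 417 in HCT116, 192 and 270.2 in HCT15 and 34.4 and 31.7 in SW620. The HCT116 libraries were highest and the SW620 libraries lowest, with no overlap with 841CON. The SW620 values rest on 7 counts in all, against 665 in 841CON. The change was 1.41 ± 0.39, adjusted p = 0.00383 in HCT116 and -2.29 ± 0.56, adjusted p = 0.00361 in SW620, and the SW620 call held under every alternative in which it was tested. The HCT116 footprint call of EIF4H was lost with the close pairs summed. Its RNA was 379.9 and 309.8 CPM in 841CON, 293 and 313 in HCT116, 411 and 253 in HCT15 and 51.5 and 147 in SW620, lower in SW620 (-1.78 ± 0.39, adjusted p = 0.00122). That change was -2.74 without SW620 INPUT replicate 2. TE of EIF4H was 3.03-fold higher in HCT116 (1.60 ± 0.54, adjusted p = 0.0206). That call was lost without 841CON footprint replicate 2, either HCT116 INPUT library or HCT116 footprint replicate 1 (1.45 to 1.55, adjusted p 0.056 to 0.0698). Footprints of EIF4B, whose mRNA starts with a pyrimidine run, were 22.5 and 16.1 CPM in 841CON, 59.3 and 51.5 in HCT116, 12.6 and 32.5 in HCT15 and 68.9 and 52.8 in SW620. They were 2.82-fold higher in HCT116 (1.5 ± 0.40, adjusted p = 0.00353) and, on 13 counts in all, 3.13-fold higher in SW620 (1.65 ± 0.53, adjusted p = 0.0207). Both calls were lost with the close pairs summed. The SW620 call was lost without 841CON footprint replicate 2 or either SW620 footprint library (1.41 to 1.80, adjusted p 0.0539 to 0.196). RNA of EIF4B was 3.93-fold higher in SW620 (1.97 ± 0.37, adjusted p = 0.000343), and its TE was not called in any line.

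PABPC1, which coats the poly(A) tail and binds EIF4G, had the largest footprint increases of the members in HCT116 and SW620. Its footprints were 169 and 133 CPM in 841CON, 1523 and 1434 in HCT116, 376 and 468 in HCT15 and 2763 and 1774 in SW620. All 6 cancer libraries exceeded both 841CON libraries, with SW620 and HCT116 above HCT15. The differences from 841CON were 9.77-fold higher in HCT116 (3.29 ± 0.39, adjusted p = 1.25e-06), 2.79-fold higher in HCT15 (1.48 ± 0.36, adjusted p = 0.00232) and 15.0-fold higher in SW620 (3.91 ± 0.40, adjusted p = 9.6e-07). The HCT15 footprint call was lost with the close pairs summed. RNA of PABPC1 was 972 and 1541 CPM in 841CON, 4251 and 4388 in HCT116, 2136 and 2094 in HCT15 and 4126 and 2635 in SW620. It was 3.44-fold higher in HCT116 (1.78 ± 0.36, adjusted p = 0.000731) and 2.69-fold higher in SW620 (1.43 ± 0.36, adjusted p = 0.00326), and the SW620 RNA call was lost without SW620 INPUT replicate 1 (1.02, adjusted p = 0.0606). TE of PABPC1 was 5.59-fold higher in SW620 (2.48 ± 0.51, adjusted p = 0.00321) with every left-out library, and it was not called with the close pairs summed or with only the compared libraries. In HCT116 TE was 2.85-fold higher (1.51 ± 0.50, adjusted p = 0.0195), a call lost without 841CON INPUT replicate 2, 841CON footprint replicate 2, either HCT116 INPUT library or either HCT116 footprint library (1.13 to 1.48, adjusted p 0.062 to 0.081). In HCT15 the TE change was 0.73 ± 0.50 and was not called.

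**Figure D2:**
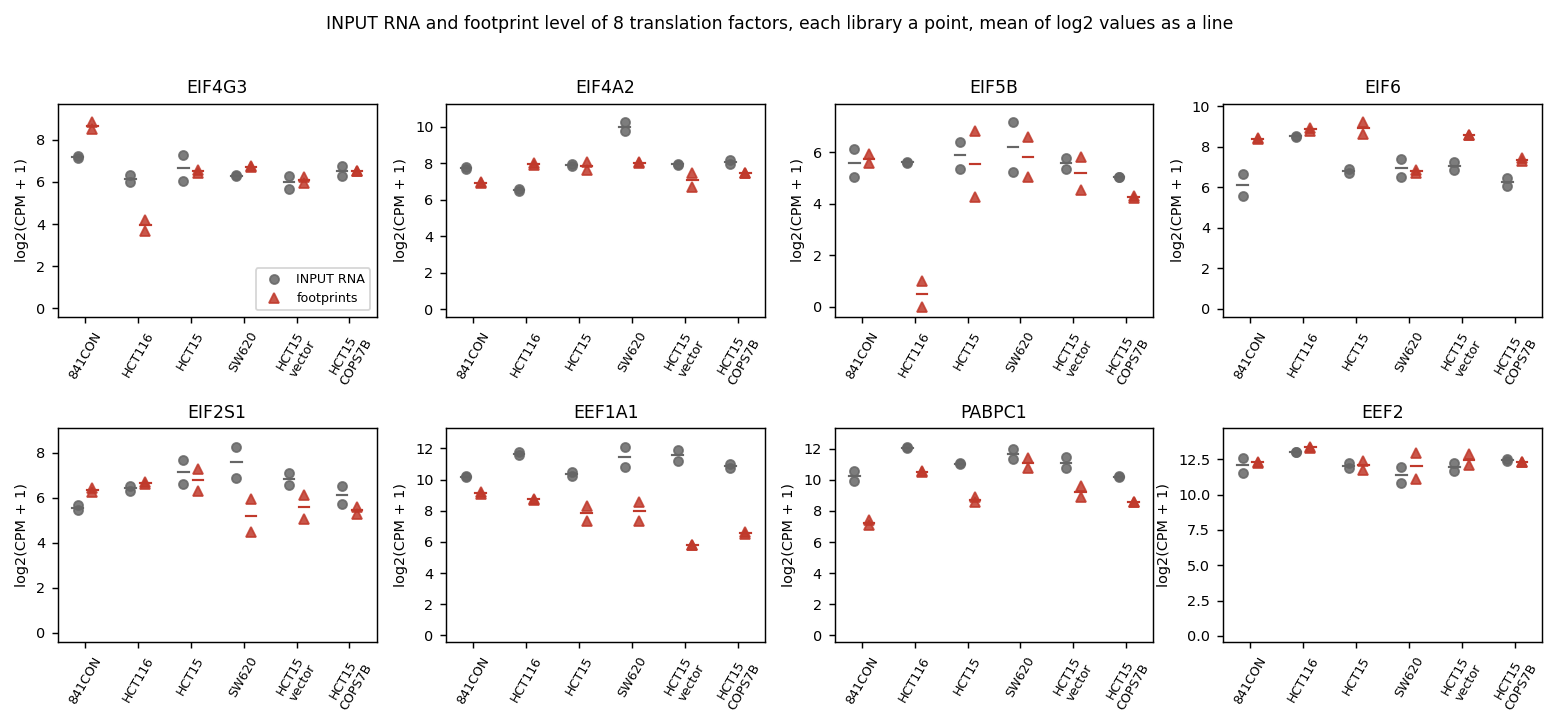
INPUT RNA (grey circles) and footprint (red triangles) level of 8 members in the 6 cell populations, as log2(CPM + 1), with 1 point per library and a line at the mean of the 2 log2 values. EIF4G3 and EIF5B footprints are lowest in HCT116, PABPC1 footprints are lowest in 841CON, and EIF4A2 RNA is lowest in HCT116 and highest in SW620.

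Of the 12 eIF3 subunits tested, footprints were higher for 8 and lower for 1 in HCT116, higher for 3 in HCT15, and higher for 2 and lower for 4 in SW620. Of all genes, 22.6% were higher and 36.7% lower in HCT116, 28.9% and 21.1% in HCT15, and 18.9% each way in SW620. The 8 in HCT116 were EIF3A, EIF3B, EIF3D, EIF3E, EIF3F, EIF3G, EIF3K and EIF3L, and 3 of them, EIF3A, EIF3D and EIF3K, were called whichever library was left out. EIF3K, a small peripheral subunit, had both RNA and footprints higher in HCT116 and HCT15. Its RNA was 63.2 and 79.3 CPM in 841CON, 269 and 273 in HCT116, 219 and 166 in HCT15 and 72.3 and 79.8 in SW620, and its footprints were 199.7 and 173 CPM in 841CON, 649.7 and 574 in HCT116, 471 and 533 in HCT15 and 121 and 73.9 in SW620. The HCT116 and HCT15 libraries lay above all of 841CON and SW620 in both readouts. The RNA changes were 1.92 ± 0.29, adjusted p = 4.17e-05 in HCT116 and 1.43 ± 0.28, adjusted p = 0.00067 in HCT15, and the footprint changes were 1.71 ± 0.28, adjusted p = 4.2e-05 and 1.43 ± 0.28, adjusted p = 0.000358. The HCT15 footprint call was lost with the close pairs summed. With RNA and footprints changed alike, TE of EIF3K differed from 841CON by -0.20 ± 0.39 and 0.00 ± 0.48 and was not called. In SW620 its footprints were lower (-0.92 ± 0.34, adjusted p = 0.0367). That call was lost without either 841CON footprint library or SW620 footprint replicate 2 (-1.03 to -0.64). It was also lost with DESeq2, library totals alone, no filter on low counts or the replicate number as a block. Summing the close pairs or fitting only the compared libraries lost it too.

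EIF3D, the subunit that can itself bind the cap of some mRNAs, had RNA of 99.0 and 148 CPM in 841CON, 357 and 377 in HCT116, 107 and 262 in HCT15 and 184 and 278 in SW620 and footprints of 217 and 192 CPM in 841CON, 734 and 671 in HCT116, 227 and 329.6 in HCT15 and 232 and 211 in SW620. Both readouts were higher in HCT116, by 1.56 ± 0.36, adjusted p = 0.00219 for RNA and 1.78 ± 0.37, adjusted p = 0.000382 for footprints, with both calls kept under every alternative. Neither was called in HCT15 or SW620. EIF3A, the largest scaffold subunit, had footprints of 317 and 282 CPM in 841CON, 764 and 832 in HCT116, 110.5 and 270.2 in HCT15 and 172 and 73.9 in SW620. They were higher in HCT116 (1.41 ± 0.40, adjusted p = 0.00531) and lower in SW620 (-1.26 ± 0.47, adjusted p = 0.0405). Both calls were lost with the close pairs summed. The SW620 call was also lost with DESeq2, library totals alone, the replicate number as a block or only the compared libraries. Leaving out either 841CON footprint library or SW620 footprint replicate 2 lost it too (-1.35 to -0.81). The SW620 change was -2.03 without SW620 footprint replicate 1. Footprints of EIF3E, another core subunit, were 341 and 286 CPM in 841CON, 856 and 894 in HCT116, 336 and 827 in HCT15 and 973 and 1647 in SW620, higher in HCT116 (1.48 ± 0.44, adjusted p = 0.00737) and in SW620 (2.06 ± 0.46, adjusted p = 0.00172). The HCT116 call was lost without 841CON footprint replicate 2 (1.36, adjusted p = 0.0603).

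TE of eIF3 subunits was lower for EIF3H, EIF3I and EIF3J in HCT116 and for EIF3B, EIF3I and EIF3M in SW620, and no subunit was called higher in either line. None of the 12 was called in HCT15. The 3 of 12 in HCT116 compare with 30.6% of all genes with lower TE there, and the 3 in SW620 with 9.70%. EIF3I, a WD-repeat subunit, had RNA of 187 and 173 CPM in 841CON, 638 and 645 in HCT116, 249.8 and 283 in HCT15 and 269 and 337 in SW620 and footprints of 416 and 329 CPM in 841CON, 529 and 539.7 in HCT116, 868 and 799 in HCT15 and 224 and 169 in SW620. HCT116 had the most RNA, and HCT15 the most footprints. TE was 2.49-fold lower in HCT116 (-1.31 ± 0.39, adjusted p = 0.0108) and 3.19-fold lower in SW620 (-1.67 ± 0.42, adjusted p = 0.0106). These calls were lost without 841CON footprint replicate 1 (-1.13, adjusted p = 0.0551) for HCT116, and without 841CON footprint replicate 1 (-1.50, adjusted p = 0.0513) for SW620. EIF3J, a loosely bound subunit, had footprints of 31.0 and 21.4 CPM in 841CON, 0.989 and 0.971 in HCT116, 70.6 and 24 in HCT15 and 25.8 and 10.6 in SW620. The HCT116 value rests on 2 counts against 112 in 841CON, which is 28.5-fold lower with a 95% Poisson interval of 7.88 to 235. RNA of EIF3J was 40.5 and 42.0 CPM in 841CON, 14 and 11.9 in HCT116, 116 and 73.1 in HCT15 and 69.0 and 223 in SW620, lower in HCT116 (-1.68 ± 0.55, adjusted p = 0.0203) and higher in SW620 (1.83 ± 0.52, adjusted p = 0.00774). Its HCT116 TE call (-3.0 ± 1.08, adjusted p = 0.0297) was lost without 841CON footprint replicate 1, HCT116 INPUT replicate 1 or either HCT116 footprint library (-3.10 to -2.70, adjusted p 0.0504 to 0.0851). The HCT116 RNA call of EIF3J was lost without 841CON INPUT replicate 2 or either HCT116 INPUT library (-1.71 to -1.47, adjusted p 0.056 to 0.145), and the SW620 one without SW620 INPUT replicate 2 (0.74, adjusted p = 0.344).

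EIF3M, whose mRNA starts with a pyrimidine run, had RNA of 60.3 and 157 CPM in 841CON, 148 and 148 in HCT116, 261 and 201 in HCT15 and 487 and 459 in SW620 and footprints of 258 and 253 CPM in 841CON, 420.3 and 449 in HCT116, 514 and 984 in HCT15 and 284 and 253 in SW620. Its RNA was 4.29-fold higher in SW620 (2.10 ± 0.45, adjusted p = 0.000913), where its footprints differed by 0.07 ± 0.47. The lower TE in SW620 (-2.03 ± 0.64, adjusted p = 0.0336) was lost without 841CON INPUT replicate 1, either 841CON footprint library, either SW620 INPUT library or either SW620 footprint library (-2.13 to -1.47, adjusted p 0.0675 to 0.105). Without 841CON INPUT replicate 2 the RNA change of EIF3M was 2.97 and its TE change -2.90. EIF3B, which forms the core with EIF3A, had lower TE in SW620 (-1.64 ± 0.54, adjusted p = 0.0401). That call was lost without 841CON INPUT replicate 2, either 841CON footprint library, SW620 INPUT replicate 2 or either SW620 footprint library (-1.74 to -1.15). It was also lost with DESeq2, library totals alone, the replicate number as a block, close pairs summed or only the compared libraries. For EIF3H the lower TE in HCT116 (-1.74 ± 0.65, adjusted p = 0.034) was lost without 841CON INPUT replicate 1, either 841CON footprint library, either HCT116 INPUT library or either HCT116 footprint library (-1.84 to -1.12, adjusted p 0.0557 to 0.0975). It was -3.08 without 841CON INPUT replicate 2.

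Among the 8 factors of initiator tRNA delivery, start codon choice and subunit joining, TE was lower for 4 in HCT116 and for 3 in SW620, and none was higher in any of the 3 lines. Of all genes tested, 30.6% had lower TE in HCT116 and 9.70% in SW620, while 15.1%, 11.6% and 8.38% had higher TE in HCT116, HCT15 and SW620. EIF5B, the GTPase that joins the ribosomal subunits (ENSG00000158417), had nearly no footprints in HCT116. Its footprints were 59.1 and 46.7 CPM in 841CON, 0 and 0.971 in HCT116, 18.2 and 113 in HCT15 and 94.7 and 31.7 in SW620. HCT116 held 1 count in all against 221 in 841CON, which is 112-fold lower with a 95% Poisson interval of 20.2 to 4438. RNA of EIF5B was 32.1 and 68.6 CPM in 841CON, 47.3 and 47.5 in HCT116, 39.6 and 83.8 in HCT15 and 36.1 and 143 in SW620, and the HCT116 libraries lay within the range of 841CON. The lower TE in HCT116 (adjusted p = 0.00191) held under every alternative, and no change of EIF5B was called in HCT15 or SW620. EIF1AX, which helps the small subunit scan, had footprints of 7.75 and 7.66 CPM in 841CON, 0 and 0 in HCT116, 2.10 and 6.11 in HCT15 and 0 and 0 in SW620. With 0 counts in HCT116 its footprints were at least 5.25-fold lower than in 841CON, taking 3 counts over the 2 libraries as the floor, and the difference was called (adjusted p = 0.00725). Its TE there was at least 3.42-fold lower on the same floor (adjusted p = 0.0393), taking the mean RNA of the 841CON libraries. Those RNA values lay far apart, and the bound does not cover their spread. The TE call was lost without either 841CON footprint library, either HCT116 INPUT library or either HCT116 footprint library. RNA of EIF1AX was 24.5 and 92.3 CPM in 841CON, 41.3 and 34.6 in HCT116, 99.6 and 66.1 in HCT15 and 237 and 457 in SW620 and was called higher in SW620 (2.53 ± 0.65, adjusted p = 0.00435), a call lost without SW620 INPUT replicate 2 (1.98, adjusted p = 0.0677). The RNA change was 1.84 without 841CON INPUT replicate 1 and 3.82 without replicate 2.

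EIF6, which keeps ribosomal subunits apart until they are ready (ENSG00000242372), had more RNA in HCT116 and fewer footprints in SW620. Its RNA was 99.0 and 46.6 CPM in 841CON, 358 and 375 in HCT116, 105 and 121 in HCT15 and 90.9 and 169 in SW620, with both HCT116 libraries above all others. Its footprints were 341 and 337 CPM in 841CON, 443 and 492 in HCT116, 401 and 592 in HCT15 and 103 and 116 in SW620, with both SW620 libraries below all others and the HCT116 and HCT15 libraries above those of 841CON, where neither change was called. RNA was 5.14-fold higher in HCT116 (2.36 ± 0.37, adjusted p = 6.51e-05), and this call held under every alternative. Footprints were 3.10-fold lower in SW620 (-1.63 ± 0.42, adjusted p = 0.00489), a call lost without SW620 footprint replicate 1 (-1.56, adjusted p = 0.0515). TE of EIF6 was 3.73-fold lower in HCT116 (-1.90 ± 0.50, adjusted p = 0.00461) and 5.69-fold lower in SW620 (-2.51 ± 0.55, adjusted p = 0.00486). Both TE calls held whichever library was left out. Without 841CON INPUT replicate 1 the HCT116 changes were 3.0 for RNA and -2.54 for TE. The HCT116 call was lost with the close pairs summed, and the SW620 call with only the compared libraries.

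The 3 subunits of eIF2, which carries the initiator tRNA, differed among themselves. RNA of EIF2S1, the subunit phosphorylated under stress, was 42.4 and 49.9 CPM in 841CON, 92.0 and 78.2 in HCT116, 203 and 96.4 in HCT15 and 117 and 306 in SW620, and its footprints were 86.8 and 75.8 CPM in 841CON, 104 and 97.1 in HCT116, 76.9 and 157 in HCT15 and 60.3 and 21.1 in SW620. All HCT15 and SW620 INPUT libraries exceeded both of 841CON, while the SW620 footprints, on 9 counts in all, lay below. RNA was higher in HCT15 (1.69 ± 0.51, adjusted p = 0.0134) and in SW620 (2.19 ± 0.52, adjusted p = 0.002). These calls were lost without HCT15 INPUT replicate 1 (1.26, adjusted p = 0.103) and without SW620 INPUT replicate 2 (1.33, adjusted p = 0.0771). TE of EIF2S1 was 8.83-fold lower in SW620 (-3.14 ± 0.84, adjusted p = 0.0156), a call lost without SW620 INPUT replicate 2 or SW620 footprint replicate 2 (-2.64 to -2.29, adjusted p 0.0859 to 0.0885), and -4.15 without SW620 footprint replicate 1. EIF2S3, the subunit that binds GTP and tRNA, had RNA of 209 and 236 CPM in 841CON, 307 and 327 in HCT116, 205 and 185 in HCT15 and 902 and 783 in SW620 and footprints of 252 and 211 CPM in 841CON, 191 and 184 in HCT116, 109.8 and 217 in HCT15 and 198 and 232 in SW620. Its RNA was 3.78-fold higher in SW620 (1.92 ± 0.32, adjusted p = 9.99e-05), without overlap, and its TE 4.08-fold lower (-2.03 ± 0.46, adjusted p = 0.00596). The TE call held whichever library was left out, and was lost with the close pairs summed or only the compared libraries. EIF2S2 had footprints of 69.4 and 50.5 CPM in 841CON, 21.8 and 16.5 in HCT116, 79.0 and 50.9 in HCT15 and 34.4 and 21.1 in SW620, lower in HCT116 (-1.65 ± 0.51, adjusted p = 0.00939). Its RNA was 24.5 and 99.8 CPM in 841CON, 99.4 and 87.1 in HCT116, 114 and 101 in HCT15 and 86.5 and 123 in SW620, and its TE in HCT116 was lower (-2.19 ± 0.69, adjusted p = 0.0147). The footprint call was lost without 841CON footprint replicate 1 or HCT116 footprint replicate 2 (-1.46 to -1.40, adjusted p 0.0693 to 0.0882), and the TE call without 841CON footprint replicate 1 or HCT116 footprint replicate 2 (-2.06 to -1.94, adjusted p 0.0595 to 0.0637). That TE change was -1.59 without 841CON INPUT replicate 1 and -3.58 without replicate 2.

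In elongation, TE was lower for 2 of the 5 genes tested in HCT116 (EEF1A1, EEF1D) and 1 in SW620 (EEF1A1), and higher for 1 in HCT15 (EEF1D), beside shares over all genes of 30.6% lower in HCT116, 9.70% lower in SW620 and 11.6% higher in HCT15. EEF1A1, which delivers aminoacyl-tRNA to the ribosome (ENSG00000156508), had RNA of 1123 and 1195 CPM in 841CON, 3009 and 3459 in HCT116, 1184 and 1459 in HCT15 and 4324 and 1828 in SW620 and footprints of 589 and 549.6 CPM in 841CON, 412 and 435 in HCT116, 162 and 318 in HCT15 and 164 and 380.1 in SW620. RNA in HCT116 and SW620 lay above 841CON, and all 6 cancer footprint libraries lay below it. RNA was 2.79-fold higher in HCT116 (1.48 ± 0.42, adjusted p = 0.00802) and 2.65-fold higher in SW620 (1.41 ± 0.42, adjusted p = 0.00997). The HCT116 RNA call was lost with the close pairs summed, and the SW620 one without SW620 INPUT replicate 1 (0.62). TE was 3.75-fold lower in HCT116 (-1.91 ± 0.58, adjusted p = 0.0123) and 5.62-fold lower in SW620 (-2.49 ± 0.61, adjusted p = 0.00929). The HCT116 call held whichever library was left out and was lost with the close pairs summed. The SW620 call was lost without SW620 INPUT replicate 1 (-1.71, adjusted p = 0.0556). It was -3.22 without SW620 footprint replicate 2. In HCT15 footprints were lower (-1.24 ± 0.42, adjusted p = 0.0185), which was lost without either 841CON footprint library or HCT15 footprint replicate 1 (-1.29 to -0.84, adjusted p 0.0517 to 0.172). EEF1A1 has many processed copies in the genome, so its counts depend on how reads with several matches were treated. In the 8 libraries of the vector and COPS7B lines whose tables give it, 16.6% to 24.7% of INPUT and 22.4% to 27.2% of RPF reads are listed apart as not uniquely aligned.

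EEF1B2 and EEF1D are subunits of the exchange factor that reloads EEF1A1 with GTP. Footprints of EEF1B2, which has the longest pyrimidine run of the members, were 62.4 and 56.6 CPM in 841CON, 183 and 183 in HCT116, 232 and 225 in HCT15 and 215 and 232 in SW620. Every cancer library exceeded both 841CON libraries. The changes were 1.61 ± 0.43, adjusted p = 0.00291 in HCT116, 1.94 ± 0.43, adjusted p = 0.00101 in HCT15 and 1.91 ± 0.47, adjusted p = 0.00362 in SW620. All 3 footprint calls held whichever library was left out and were lost with the close pairs summed. RNA of EEF1B2 was 69.8 and 255 CPM in 841CON, 537 and 593 in HCT116, 305 and 202 in HCT15 and 457 and 275 in SW620, with 841CON libraries far apart. It was higher in HCT116 (1.78 ± 0.42, adjusted p = 0.00221), a call kept under every alternative with changes of 1.17 without 841CON INPUT replicate 1 and 3.02 without replicate 2. In SW620 the RNA was higher too (1.15 ± 0.41, adjusted p = 0.0288), which was lost without 841CON INPUT replicate 1 or SW620 INPUT replicate 1 (0.47 to 0.67, adjusted p 0.278 to 0.304) and rose to 2.39 without 841CON INPUT replicate 2. TE of EEF1B2 was not called in any line. EEF1D had footprints of 135 and 94.9 CPM in 841CON, 81.1 and 75.7 in HCT116, 317 and 329 in HCT15 and 112 and 169 in SW620 and RNA of 379.9 and 214 CPM in 841CON, 449 and 466 in HCT116, 255 and 282 in HCT15 and 223 and 164 in SW620. TE of EEF1D was lower in HCT116 (-1.19 ± 0.46, adjusted p = 0.0426) and higher in HCT15 (1.63 ± 0.46, adjusted p = 0.0199). The HCT116 call was lost without 841CON INPUT replicate 2, 841CON footprint replicate 1, either HCT116 INPUT library or either HCT116 footprint library (-1.34 to -0.83, adjusted p 0.057 to 0.183), and the HCT15 call without 841CON INPUT replicate 1, 841CON footprint replicate 2 or HCT15 INPUT replicate 1 (1.05 to 1.41, adjusted p 0.0924 to 0.107). TE of EEF1D differed among the 3 cancer lines (F test, adjusted p = 0.000299).

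EEF2, the translocase, had abundant RNA and footprints in all 4 lines. Its RNA was 6181 and 3019 CPM in 841CON, 8236 and 8284 in HCT116, 3724 and 4737 in HCT15 and 4007 and 1821 in SW620, and its footprints were 5128 and 4866 CPM in 841CON, 10287 and 10435 in HCT116, 3384 and 5412 in HCT15 and 2195 and 7793 in SW620. The HCT116 libraries were the highest in both readouts, but no RNA, footprint or TE change of EEF2 was called in any of the 3 lines. Its TE changes were 0.21 ± 0.70, -0.06 ± 0.70 and 0.66 ± 0.71. EIF5A, which helps ribosomes past proline stretches, had RNA of 370.5 and 419 CPM in 841CON, 1395 and 1489 in HCT116, 1451 and 844 in HCT15 and 527 and 915 in SW620. It was higher in HCT116 (1.87 ± 0.39, adjusted p = 0.000904) and in HCT15 (1.54 ± 0.39, adjusted p = 0.00423), and both calls held under every alternative. Its footprints were called higher in HCT15 (1.13 ± 0.38, adjusted p = 0.0195), which was lost without either 841CON footprint library or HCT15 footprint replicate 1 (1.00 to 1.28, adjusted p 0.0564 to 0.125).

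The termination factors ETF1, which reads stop codons, and GSPT1, its GTPase partner, were called in different lines. Footprints of ETF1 were 124 and 121 CPM in 841CON, 26.7 and 23.3 in HCT116, 144 and 120.0 in HCT15 and 43.0 and 137 in SW620. Both HCT116 libraries lay below all others. The difference from 841CON was 4.89-fold lower (-2.29 ± 0.43, adjusted p = 0.000156), kept under every alternative in which it was tested, and TE was 4.30-fold lower (-2.10 ± 0.57, adjusted p = 0.00567). That TE call held whichever library was left out and was lost with the close pairs summed. Its change was -2.83 without 841CON INPUT replicate 2. RNA of ETF1 was 137 and 312 CPM in 841CON, 191 and 207 in HCT116, 376 and 230.4 in HCT15 and 371 and 439 in SW620 and was not called. RNA of GSPT1 was 153 and 120.5 CPM in 841CON, 146 and 133 in HCT116, 396 and 306 in HCT15 and 375 and 522 in SW620, and all HCT15 and SW620 libraries exceeded 841CON and HCT116. It was higher in HCT15 (1.37 ± 0.34, adjusted p = 0.0036) and SW620 (1.72 ± 0.34, adjusted p = 0.000481), with both calls kept under every alternative in which they were tested. Footprints and TE of GSPT1 were not called in any line.

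Among the regulators, EIF4EBP1, which holds EIF4E away from the scaffold when mTOR is inactive, had RNA of 34.9 and 111 CPM in 841CON, 363 and 364 in HCT116, 137 and 125 in HCT15 and 123 and 117 in SW620 and footprints of 116 and 113 CPM in 841CON, 439 and 476 in HCT116, 455 and 235 in HCT15 and 60.3 and 116 in SW620. HCT116 had the most RNA, and HCT116 and HCT15 the most footprints. RNA was 4.85-fold higher in HCT116 (2.28 ± 0.52, adjusted p = 0.00193), and footprints were higher in HCT116 (2.0 ± 0.52, adjusted p = 0.00266) and HCT15 (1.59 ± 0.51, adjusted p = 0.015). Both footprint calls were lost with the close pairs summed. The HCT15 call was lost without either 841CON footprint library or HCT15 footprint replicate 1 (1.04 to 1.60, adjusted p 0.0795 to 0.151). The RNA change in HCT116 was 1.74 without 841CON INPUT replicate 1 and 3.38 without replicate 2. PDCD4, an inhibitor of EIF4A, had RNA of 15.1 and 19.4 CPM in 841CON, 10.7 and 10.4 in HCT116, 63.2 and 86.1 in HCT15 and 51.5 and 84.4 in SW620 and footprints of 48.7 and 27.6 CPM in 841CON, 90.0 and 66.0 in HCT116, 79.0 and 34.2 in HCT15 and 8.61 and 42.2 in SW620. Only 5 counts in all made up the SW620 footprints of PDCD4. Its RNA was 4.23-fold higher in HCT15 (2.08 ± 0.52, adjusted p = 0.00439), held under every alternative, and 3.88-fold higher in SW620 (1.96 ± 0.53, adjusted p = 0.00548), lost without SW620 INPUT replicate 2 (1.55, adjusted p = 0.0692). Its footprints overlapped 841CON in both lines. TE was called lower in SW620 (-2.63 ± 0.90, adjusted p = 0.0489). That call was lost without either 841CON INPUT library, 841CON footprint replicate 1, either SW620 INPUT library or SW620 footprint replicate 1 (-2.89 to -1.84). It was also lost with DESeq2, library totals alone, close pairs summed, only the compared libraries, or a replicate block shared by INPUT and RPF. The TE change was -4.12 without SW620 footprint replicate 2.

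EEF2K, the kinase that inhibits EEF2, had RNA of 70.7 and 1.93 CPM in 841CON, 83.4 and 71.2 in HCT116, 118 and 57.7 in HCT15 and 32.9 and 33.1 in SW620. The 2 libraries of 841CON were so far apart that leaving out replicate 1 turned the TE change from 0.99 to -3.12 in HCT116. Footprints of EEF2K were 15.1 and 12.2 CPM in 841CON, 50.4 and 76.7 in HCT116, 33.6 and 47.4 in HCT15 and 8.61 and 0 in SW620 and were called higher in HCT116 (2.20 ± 0.86, adjusted p = 0.033), lost without either 841CON footprint library or HCT116 footprint replicate 2 (1.87 to 2.37, adjusted p 0.108 to 0.135). EIF4G2, a scaffold relative without a site for EIF4E, had footprints of 1123 and 1007 CPM in 841CON, 745 and 690.2 in HCT116, 1012 and 1490.4 in HCT15 and 3736 and 1563 in SW620 and was called higher in SW620 (1.32 ± 0.45, adjusted p = 0.0278), lost without either 841CON footprint library or SW620 footprint replicate 1 (0.54 to 1.38, adjusted p 0.0942 to 0.482).

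**Figure D3:**
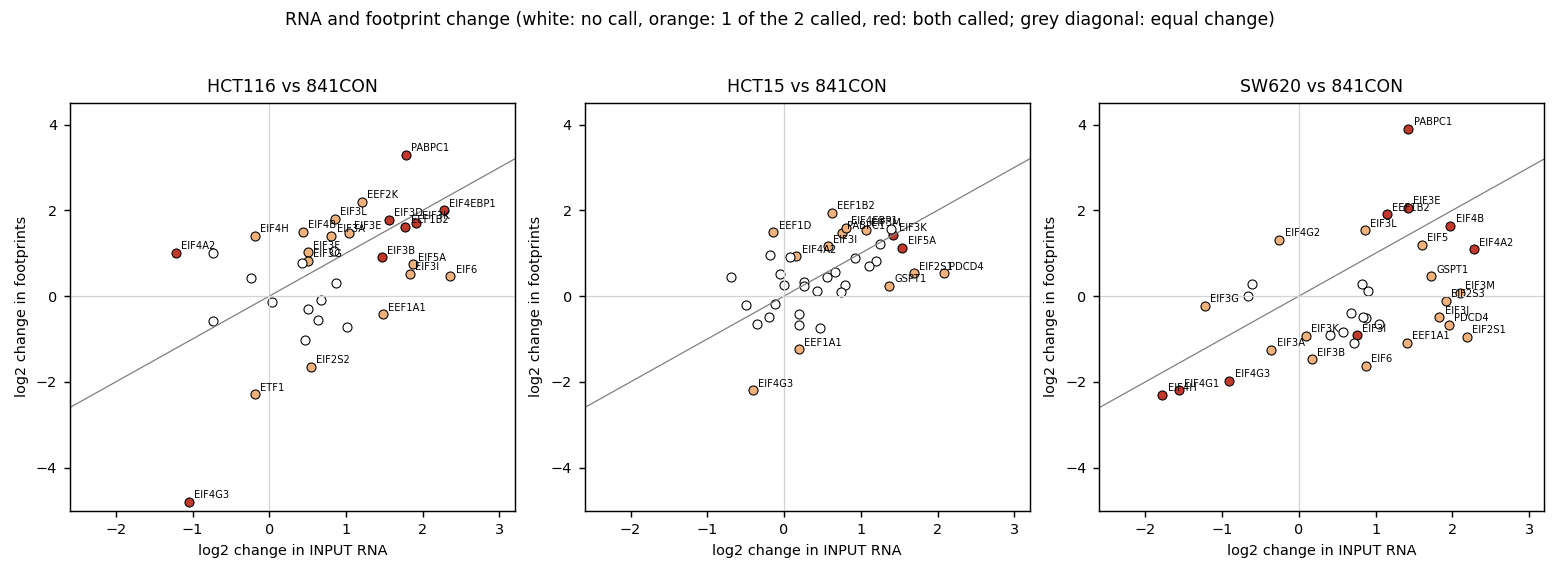
Log2 change of INPUT RNA (horizontal) against log2 change of footprints (vertical) for the members in each cancer line relative to 841CON. Points on the grey diagonal have equal changes, names mark members called in at least 1 readout, and EIF4A1 and members with 3 footprint counts or fewer in the cancer line are left out. PABPC1 lies above the diagonal in HCT116 and SW620, and EIF6 and EEF1A1 lie below it in both.

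Members whose start carries the pyrimidine run were compared with the members whose listed starts carry none. The 9 members without a listed start are in neither set. Among them are PABPC1, EIF3A, EIF3E, EIF3H and EEF1D, which are known TOP mRNAs. In HCT116, footprints of the 10 members with a run were higher for 6 and lower for 0, with a median log2 change of 1.04, and higher for 3 and lower for 6 of 20 members without one, with a median of -0.11. Over all genes 22.6% were higher and 36.7% lower in that line. The 6 were EIF4A2, EIF4B, EIF3D, EIF3F, EIF3K and EEF1B2, and the run members EEF1A1, EEF2, EIF2S3 and EIF3M had changes of -0.43, 1.05, -0.30 and 0.77 without a call. The call of EIF3F was lost without either 841CON footprint library or either HCT116 footprint library (0.99 to 1.06, adjusted p 0.0959 to 0.127). In HCT15 footprints were higher for 4 and lower for 1 of 10 with a run (median 0.69) and higher for 2 and lower for 1 of 20 without (median 0.52). In SW620 they were higher for 3 and lower for 1 of 10 (median 0.04) and higher for 1 and lower for 6 of 20 (median -0.89). The all-gene shares were 28.9% higher and 21.1% lower in HCT15 and 18.9% each way in SW620. TE calls of members with a run were 1 higher and 1 lower in HCT116, 0 in HCT15 and 3 lower in SW620. Those of the 19 members without a run that were tested were 1 higher and 7 lower in HCT116, 1 lower in HCT15 and 5 lower in SW620. Of the 11 members known as TOP mRNAs, 10 were tested for TE. The calls were 1 higher and 3 lower in HCT116, 1 higher in HCT15, and 1 higher and 1 lower in SW620. Their median TE change in SW620 was 0.16, beside -1.10 for the members with a run. All-gene shares of TE calls were 15.1% higher and 30.6% lower in HCT116, 11.6% and 5.08% in HCT15, and 8.38% and 9.70% in SW620. The grouping was made with earlier results known, and the difference between the sets was not tested.

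The 3 cancer lines also differed among themselves. TE differed between HCT116, HCT15 and SW620 for 19 of 38 members in the F test (50.0%, against 52.7% of all genes tested). Fewer members and fewer of all genes were called without any one HCT116 library, and when the close pairs were summed. All 4 members of the cap-binding complex tested were among the 19, as were both helicase cofactors and PABPC1. The smallest adjusted p belonged to EIF4A2, EEF1D (0.000299) and EIF3I (0.000404). For EIF3I, TE against 841CON was -1.31, 0.59 and -1.67 in HCT116, HCT15 and SW620. Among eIF2 and its partners EIF2S2, EIF1, EIF1AX and EIF5 were not called.

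Few members differed between HCT15 labelled as overexpressing COPS7B and the vector line. TE was called for 0 of 38 members, and for 0 of 9542 genes in all (0%), by edgeR, while 2 members and 132 genes had an unadjusted p under 0.05, and DESeq2 called 0 members as well. The 2 members were EEF1A1 (1.48 ± 0.59) and EIF5 (1.38 ± 0.65). RNA was called for 1 of 39 members (2.56%, against 17.5% of all genes, with 9.18% higher and 8.31% lower) and footprints for 3 (7.69%, against 17.3%, with 7.92% higher and 9.42% lower). RNA of EIF2S3 was 209 and 198 CPM in the vector line and 344 and 497 in the COPS7B line, 2.07-fold higher (1.05 ± 0.31, adjusted p = 0.023). Its footprints were 98.5 and 75.9 and 175 and 172 CPM, 1.98-fold higher (0.99 ± 0.31, adjusted p = 0.0355). RNA and footprints of EIF2S3 were thus about equally higher, without overlap, and its TE change was -0.06 ± 0.44. The RNA call was lost without either vector INPUT library or COPS7B INPUT replicate 2 (0.76 to 1.15, adjusted p 0.0962 to 0.252), and the footprint call without either vector footprint library or either COPS7B footprint library (0.82 to 1.30, adjusted p 0.0575 to 0.185).

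Footprints of EIF6 were 378 and 379.7 CPM in the vector line and 171 and 159 in the COPS7B line, 2.30-fold lower (-1.20 ± 0.35, adjusted p = 0.023). Footprints of EEF1D were 589 and 406 and 203 and 197 CPM, 2.49-fold lower (-1.31 ± 0.32, adjusted p = 0.00844). Neither pair of libraries overlapped. The EIF6 call was lost without either vector footprint library or either COPS7B footprint library (-1.25 to -1.09, adjusted p 0.0721 to 0.166), and the EEF1D call without vector footprint replicate 1 or either COPS7B footprint library (-1.33 to -0.91, adjusted p 0.0803 to 0.155). For EEF1A1, RNA was 3792 and 2365 CPM in the vector line and 2091 and 1707 in the COPS7B line, and footprints were 55.1 and 53.6 and 91.1 and 96.3 CPM. Its RNA was lower and its footprints higher in both COPS7B libraries than in both vector libraries, but neither change was called (-0.70 ± 0.41, adjusted p = 0.308 for RNA, 0.78 ± 0.43, adjusted p = 0.238 for footprints). PABPC1 had RNA of 2783 and 1758 CPM in the vector line and 1203 and 1139 in the COPS7B line, a change of -0.96 ± 0.35, adjusted p = 0.0715, which was not called. EIF4G3 footprints were 60.9 and 73.3 and 91.3 and 92.0 CPM and those of EIF4A2 102 and 174 and 174 and 177, with no call for either.

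**Figure D4:**
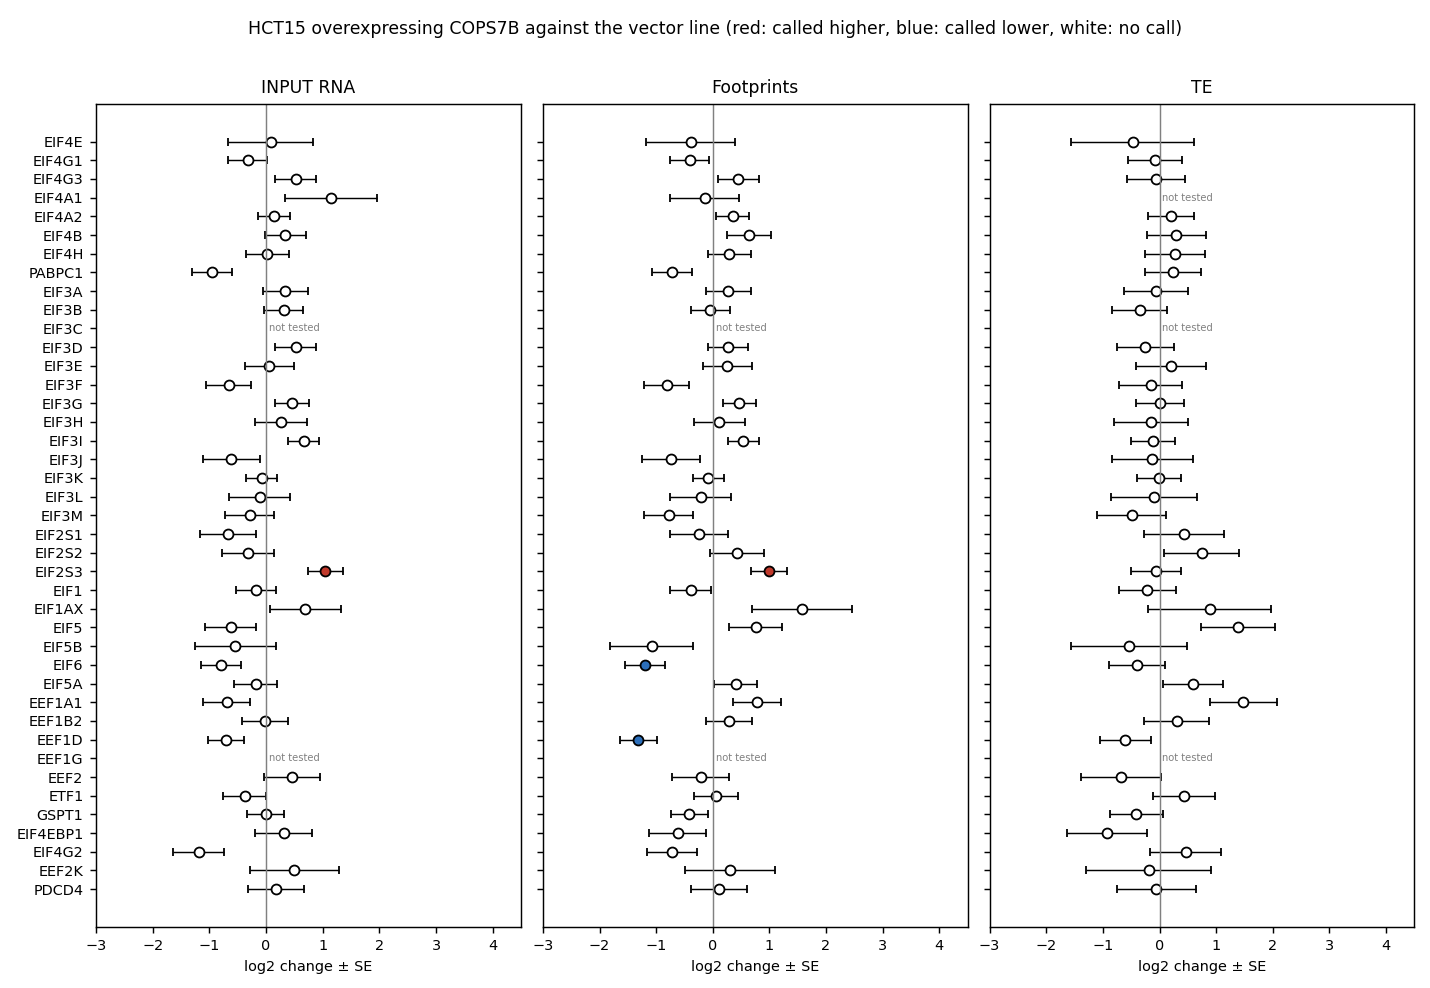
Log2 change of INPUT RNA, footprints and TE of each member in HCT15 overexpressing COPS7B against the vector line, with standard errors and 2 libraries of each kind per line. EIF2S3 is called higher in RNA and footprints, EIF6 and EEF1D are called lower in footprints, and no TE change is called.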

How the data were processed

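Raw counts per Ensembl gene were deposited by the authors, 1 table for each of the 24 libraries, and were used as deposited. Per the submitters' processing notes, the tools were STAR 2.7.9, HTSeq 2.0.2 and cutadapt 3.5, with the build GRCh38. The strand setting is not given in the sources used here, so near-identical copies and overlapping genes are uncertain. Lines that name no gene, present in 8 tables (the vector and COPS7B lines), held 53.6% to 76.0% of INPUT and 80.5% to 90.8% of RPF reads and were left out. Of 60623 genes listed for INPUT, the 20426 also listed for RPF were used.

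Groups came from the labels, 12 groups of 2. All 24 libraries entered one quasi-likelihood model of edgeR 4.0.16 (R 4.3.3) with 12 group means and 12 residual degrees of freedom. It held the 11938 genes that passed filterByExpr at a minimum count of 10 among INPUT and among RPF libraries. Scaling by trimmed means (TMM) was done within each kind of library. TE is the interaction of assay and line, tested where mean INPUT was at least 10 counts in both lines. Tests are two-sided, with Benjamini-Hochberg adjustment over all genes tested. A standard error is the absolute log2 change over the square root of its F. Intervals and floors cover counting error only. Alternatives were DESeq2 1.42.0, other scaling and filters, replicate blocks, close pairs (chi-square per degree of freedom under 2) summed, only the compared libraries, and each library left out, where a lone library borrows its spread from the other groups. The fit was also run on simulated counts with the same spread for every gene. That run does not cover the uneven spread between the libraries here, so no call rests on it.

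The members and lists were chosen with earlier results of these data known. For each cancer line, values in every library are given for up to 5 members called higher and 5 called lower by largest TE change. In these comparisons they are always given for EIF4E, EIF4EBP1, EIF4A1, EIF4A2, PDCD4, EEF1A1, EEF2, PABPC1, EIF2S1, EIF6 and EEF2K. Values of further members were added after their results were seen. The comparison with the vector line gives values for a selection of members only, and for some of these only RNA or only footprints. Symbols were paired with identifiers only for the 41 members, so marker genes and other translation factors were not analysed here. Same-numbered libraries did not deviate together in the 12 pairs examined (correlations of deviations from -0.119 to 0.075), so numbers were not used as pairs. Those pairs did not include INPUT with RPF of 841CON or of the vector line.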

Additional observations from a re-analysis of the deposited data

Results flagged for a closer look

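The difference in TE among HCT116, HCT15 and SW620 passed edgeR's F test for 19 members, given here with their log2 TE changes against 841CON in that order of lines. In the cap-binding complex and its cofactors these were EIF4A2 (adjusted p = 3.63e-05, with changes of 2.23, 0.77 and -1.19), EIF4G3 (adjusted p = 0.0029, with changes of -3.75, -1.79 and -1.06) and EIF4G1 (adjusted p = 0.0257, with changes of 0.67, -0.87 and -0.63). They also included EIF4B (adjusted p = 0.036, with changes of 1.06, -0.54 and -0.33), EIF4H (adjusted p = 0.0371, with changes of 1.60, 0.56 and -0.51) and PABPC1 (adjusted p = 0.0211, with changes of 1.51, 0.73 and 2.48). EIF4E passed as well (adjusted p = 0.0486), on 1 footprint count in HCT116 and 0 in SW620.

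In eIF3 the members were EIF3I (adjusted p = 0.000404, with changes of -1.31, 0.59 and -1.67), EIF3M (adjusted p = 0.00506, with changes of 0.34, 0.49 and -2.03) and EIF3F (adjusted p = 0.0112, with changes of 0.52, 1.14 and -1.31). The other two were EIF3B (adjusted p = 0.0196, with changes of -0.56, 0.25 and -1.64) and EIF3H (adjusted p = 0.0198, with changes of -1.74, 0.28 and -1.70). Among the remaining initiation factors, EIF6 (adjusted p = 0.00267, with changes of -1.90, -0.11 and -2.51), EIF2S3 (adjusted p = 0.0124, with changes of -0.81, -0.30 and -2.03) and EIF2S1 (adjusted p = 0.0407, with changes of -0.57, -1.16 and -3.14) passed. EIF5B passed (adjusted p = 0.0039) on 1 footprint count in HCT116. In elongation, termination and regulation, EEF1D (adjusted p = 0.000299, with changes of -1.19, 1.63 and 0.89), ETF1 (adjusted p = 0.0356, with changes of -2.10, -0.32 and -1.33) and PDCD4 (adjusted p = 0.000929, with changes of 1.75, -1.54 and -2.63) passed.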

How the results depend on the processing

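With each library left out in turn, called members numbered 8 to 16 for TE, 11 to 18 for RNA and 16 to 18 for footprints in HCT116. In HCT15 they numbered 0 to 5, 5 to 16 and 7 to 14, in SW620 5 to 13, 14 to 27 and 9 to 11, and in the COPS7B line 0, 0 to 1 and 0 to 3, while the F test called 12 to 20. RNA of EIF2S3 in the COPS7B line lost its call without either vector INPUT library or COPS7B INPUT replicate 2, leaving 0, and footprint calls there fell to 0 without vector footprint replicate 1 or either COPS7B footprint library. Raising the minimum mean to 50 counts, in INPUT and RPF alike, kept 27 members in HCT116 and 5 in SW620. It gave 6 TE and 13 footprint calls in HCT116, 1 TE, 2 RNA and 4 footprint calls in SW620, and 1 call in the F test. Of all 2800 genes then tested in HCT116, 549 were called for TE and 1239 for footprints. In SW620 the calls were 56 for TE, 108 for RNA and 120 for footprints of 153 genes, and in the F test 69 of 148. Summing close pairs lowered the TE and footprint calls of members in each cancer line and the calls of the F test. No member kept a TE call in HCT15, or an RNA or footprint call in the COPS7B line. Calls among all genes fell in each of these cases as well. With only the compared libraries there were 0 TE and 7 footprint calls in HCT15, 0 TE calls in SW620 and 4 RNA calls in the COPS7B line. Of all genes, that fit called 0 of 8517 for TE and 3359 of 9987 for footprints in HCT15. For TE in SW620 it called 288 of 7284 genes, and for RNA in the COPS7B line 3887 of 11370. DESeq2 gave 5 TE and 10 RNA calls in HCT15 and 4 RNA calls in the COPS7B line. Over all genes its calls were 1895 of 8876 for TE and 4540 of 11938 for RNA in HCT15. For RNA in the COPS7B line they were 2118 of 11938. Library totals without TMM gave 14 RNA calls in HCT15, and 2 RNA calls in the COPS7B line, as did TMM over all 24 libraries together. Of 11938 genes, totals called 4406 for RNA in HCT15 and 2072 in the COPS7B line, where TMM over all libraries called 2181. EEF2K turned direction without 841CON INPUT replicate 1, to -3.12 for TE in HCT116, -4.01 for TE in HCT15 and 4.00 for RNA in SW620, where leaving out replicate 2 gave 2.06, 1.24 and -1.10. The replicate number as a block within each assay left the TE calls at 14, 2, 8 and 0 for HCT116, HCT15, SW620 and the COPS7B line. As a block shared by INPUT and RPF of a line, chosen after seeing the data, it gave 13, 1, 6 and 0, and 10 in SW620 with that line's numbers crossed. Of 8502, 8876, 8396 and 9542 genes, the block within each assay called 3742, 1230, 1370 and 0. The shared block called 3482, 954, 1007 and 0 of them, and 1225 in SW620 with numbers crossed. TE of the COPS7B line had 0 member calls under each of these. Of 6296 values compared over single members, 5819 kept their direction and side of the threshold, 304 lost a call, 170 gained one and 3 reversed. Apart from the construction of the alternative (fewer libraries or genes), the cause of these shifts was not tested. Depth limits SW620 most.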

Other observations

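The vector line and parental HCT15 were not compared by a test, and their levels of several members lay apart. Footprints of EEF1A1 were 162 and 318 CPM in parental HCT15 and 55.1 and 53.6 in the vector line, while its RNA was 1184 and 1459 and 3792 and 2365 CPM. Footprints of EIF2S3 were 109.8 and 217 CPM in the parental and 98.5 and 75.9 in the vector line, and those of EEF1D were 317 and 329 and 589 and 406 CPM. Footprints of EIF3J stood at 70.6 and 24 CPM and 69.4 and 70.6 CPM, which overlap. EIF4G3 footprints were 85.3 and 92.9 CPM in the parental line and 60.9 and 73.3 in the vector line.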
